A study of Drosophila melanogaster with 9 samples.

Results

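The genes described here are the small nucleolar RNAs (snoRNAs) and small Cajal body RNAs (scaRNAs) of Drosophila melanogaster that were counted in intestinal progenitor cells. A gene was taken when its name began with snoRNA or scaRNA and it held at least 50 counts summed over the 6 RNA-seq libraries. This gave 214 genes of 304 with such a name, out of 17806 named genes. Of these, 199 were snoRNAs and 15 were scaRNAs. After that prefix the deposited names begin with Me for 53 genes of the C/D class and with Psi for 114 genes of the H/ACA class. The remaining 47 genes have other names. Below, C/D and H/ACA stand for these name groups only. The other names hold further C/D RNAs, such as the U3 genes, and further H/ACA RNAs, such as snoRNA:Or-aca5. All 206 genes that could be placed in the BDGP6 annotation had the biotype snoRNA there. The members were thus chosen by their RNA-seq counts over all 6 libraries, and that they are present is no finding. The member nearest the minimum, snoRNA:nop5-x16-a, held 52 counts, and snoRNA:Me28S-C3420a and snoRNA:Me28S-U3344b, just outside, held 49 each.

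A snoRNA or scaRNA guides an enzyme to a chosen base of another RNA by pairing with it. C/D RNAs carry fibrillarin, which methylates the ribose, and H/ACA RNAs carry dyskerin, which turns uridine into pseudouridine; the target RNA and the residue are written in the gene names. snoRNAs act on ribosomal RNA in the nucleolus, scaRNAs act on spliceosomal RNAs in the Cajal body, and the U3 snoRNAs are needed for cleavage of the ribosomal RNA precursor. In flies most of them are cut from introns of a host gene and trimmed by exonucleases until the bound proteins stop the trimming.

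RNA-seq was made from sorted GFP-positive progenitors of female intestines, with 3 control libraries of wild-type genotype titled esgTS and 3 libraries labelled swm RNAi, a knockdown of the RNA-binding protein Swm. CLIP-seq was made from whole intestines of wild-type genotype as 1 input and 2 immunoprecipitates with Swm beads (Swm IP). Each RNA-seq replicate pooled 100 females. The age, the fly lines and the driver of the RNA interference are not given in the labels, and neither is whether the replicates are separate crosses. A p-value here therefore measures a spread that may be technical.

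Depth was 19428033 to 19962224 counts in the controls, 14627251 to 19399264 in the libraries labelled swm RNAi, 4615623 in the input and 2451369 and 8497190 in the Swm IPs. The swm transcript itself stood at 159, 116 and 157 CPM (counts scaled to the library total and the TMM factor) in the controls and 159, 137 and 135 in the libraries labelled swm RNAi, so the knockdown was not seen in the transcript and each direction given here is that of the libraries labelled swm RNAi. The summed level of 10 progenitor markers was 5133 to 8450 CPM in the controls and 6370 to 7680 in the libraries labelled swm RNAi, with 1 of the 10 called, cher, lower by edgeR (log2 fold change -0.80, edgeR adjusted p = 0.0273). esg stood at 1399 to 1726 CPM in the controls and 1530 to 2154 in the libraries labelled swm RNAi. The sum over 9 enterocyte markers was 535 to 787 CPM in the controls and 787 to 1787 in the libraries labelled swm RNAi, 7 enteroendocrine markers summed to at most 10.6 CPM and 5 visceral muscle markers to at most 16.6 CPM in any RNA-seq library. The 7 ovary and germline markers summed to 45.5 to 59.3 CPM in the controls and 497 to 1298 in the libraries labelled swm RNAi, of which piwi held 34.1 to 54.0 and 487 to 1295. It was called higher (log2 fold change 4.20, edgeR adjusted p = 0.000432), while vas, nos, osk and bam stayed below 1 CPM in every RNA-seq library. The part of other cells in the levels below was not tested, and in bulk samples fewer cells of a type and less RNA per cell cannot be told apart.

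Most of the abundant members were H/ACA RNAs, with 7 of the first 10 and 14 of the first 20, and nearly all C/D RNAs were rare. The most abundant member took 7.48% of all member counts, the first 10 took 40.5% and the first 20 took 59.4%. Per length, the median level over the 6 libraries was 1149 CPM per kb for the 114 H/ACA genes, 17.7 CPM per kb for the 53 C/D genes and 150.4 CPM per kb for the 47 others. A mean of at least 5 CPM was reached by 106 of 114 H/ACA genes, by 9 of 53 C/D genes and by 29 of 47 others. At least 1 of the 6 libraries held no count for 20 C/D genes, 3 H/ACA genes and 12 others.

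The classes also differ in length, and levels differed with length as well as with class. The median gene length was 80 bases for C/D and 140 bases for H/ACA genes. Of the members, 55 were shorter than 100 bases, and their median level was 14.5 CPM per kb against 884 CPM per kb for the 159 of 100 bases or more. No H/ACA gene was shorter than 124 bases. Among the C/D genes alone, the 36 under 100 bases had a median of 14.1 CPM per kb and the 17 of 100 bases or more had 37.2 CPM per kb, and 7 of the 9 C/D genes with at least 5 CPM were in the longer group. Across genes, length and level per kb had a Spearman rho of 0.58 over the 214 members, 0.34 within C/D and 0.34 within H/ACA. Genes are not independent replicates and share the 6 libraries, so these are descriptions. How far the library preparation sets the level of short RNAs was not tested. Class and length cannot be told apart over the range in which only C/D and unclassed names lie.

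**Figure D1:**
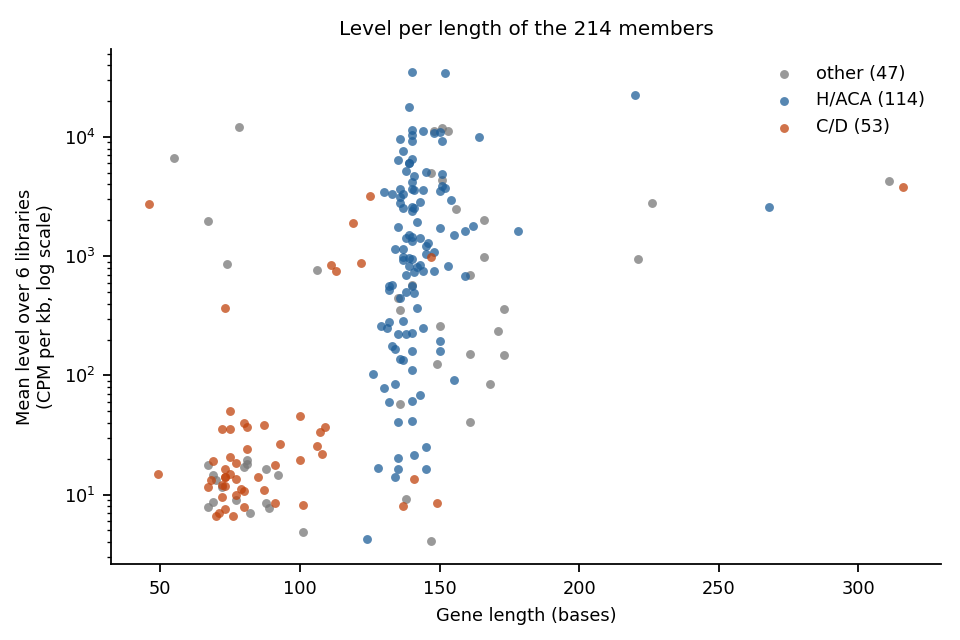
Mean level over the 6 RNA-seq libraries (CPM per kb, log scale) against gene length in bases for the 214 members, with C/D in red, H/ACA in blue and other names in grey. The H/ACA genes lie at 124 to 268 bases and most C/D genes lie under 100 bases near the bottom of the scale.

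Among the H/ACA genes, the highest level was that of snoRNA:Psi18S-531 (X, 763083 to 763234, minus strand), named for a residue of 18S ribosomal RNA and placed in the non-coding gene lncRNA:CR42491. It stood at 4702, 4283 and 4257 CPM in the controls and 8671, 4411 and 4905 CPM in libraries labelled swm RNAi. The first of the latter was far above the other 5 libraries, and the groups overlapped. snoRNA:Psi18S-1820, placed in Nop60B, the gene for the fly dyskerin, stood at 3674, 4254 and 5292 CPM in the controls and 6899, 5112 and 4267 CPM in libraries labelled swm RNAi. snoRNA:Psi28S-291, in the ribosomal protein gene RpL3, stood at 3559.7, 4612 and 8350.5 CPM in the controls against 4612, 4561 and 3903 CPM. For both, the groups overlapped, and control replicate 3 was the highest library for snoRNA:Psi28S-291. snoRNA:Psi18S-110, in the splicing factor gene Sf3b3, stood at 2159.9, 2205 and 1934 CPM in the controls and 3608, 2263 and 2654 CPM in libraries labelled swm RNAi, and snoRNA:Psi28S-3378, in the chromatin remodeller gene dom, at 1834, 1648 and 1333 CPM in the controls against 2168, 1276 and 1715 CPM. The groups did not overlap for snoRNA:Psi18S-110, where every library labelled swm RNAi was higher, and overlapped for snoRNA:Psi28S-3378. The log2 fold changes of these 5 were 0.44, 0.30, -0.34, 0.44 and 0.10, in the order in which they are named, and none passed the test (edgeR adjusted p from 0.395 to 0.935).

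The C/D class was carried by its scaRNAs. The 9 C/D scaRNAs held 87.7% of all C/D counts, and scaRNA:MeU5-C46, named for a residue of the U5 spliceosomal RNA and placed in CG1142, alone held 48.8%. It is also one of the longest members, with 316 bases, and its level per length, 3772 CPM per kb, was close to that of scaRNA:MeU2-48 with 3197 CPM per kb. The 44 C/D snoRNAs had a median of 15.7 CPM per kb, and 3 of them reached 5 CPM. Among the 6 H/ACA scaRNAs the median was 821 CPM per kb, below the 1252 CPM per kb of the 108 H/ACA snoRNAs, and the most abundant was scaRNA:PsiU2-55 in the spliceosome gene Prp8, at 300.3, 321 and 206 CPM in the controls and 349.8, 225 and 335 CPM in libraries labelled swm RNAi, which overlapped.

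The 3 most abundant of the other names reached the level of the leading H/ACA genes. snoRNA:2R:9445205 stood at 2596, 1832 and 1341 CPM in the controls and 2295, 1045 and 1608 CPM in libraries labelled swm RNAi. snoRNA:SC35-a, in the splicing factor gene SC35, stood at 2099, 1516 and 1529.7 CPM in the controls against 2145, 1351 and 1661 CPM. snoRNA:Or-aca5, in the non-coding host gene Uhg4, stood at 1578, 1479 and 1772 CPM in the controls against 2184, 1374 and 1496 CPM. The groups overlapped for all 3.

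Members that share a host gene differed widely in level. Of the 206 placed members, 190 lay inside another gene on the same strand, in 76 hosts. The hosts included 23 ribosomal protein genes with 55 members and Uhg genes, which are non-coding snoRNA hosts, with 30 members. The 40 H/ACA genes inside ribosomal protein genes had a median level of 2836 CPM per kb, against 692 CPM per kb for the 66 H/ACA genes inside other coding or non-coding hosts outside the Uhg group. The 20 C/D genes inside Uhg hosts had a median of 15.3 CPM per kb and the 9 inside ribosomal protein genes 14.04 CPM per kb.

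The 11 hosts that held at least 5 members contained 100 of them. Arpc2, which encodes a subunit of the actin-nucleating Arp2/3 complex, held 17 H/ACA genes at 4.23 to 448 CPM per kb. dom held 15 members at 25.7 to 11081 CPM per kb, and its 3 C/D genes were the lowest of them. RpS5a held 14 H/ACA genes, from 20.3 CPM per kb for snoRNA:Psi28S-1192d to 11351 CPM per kb for snoRNA:Psi28S-1192a, a 559.8-fold range. In Uhg4 the range was from 9.85 CPM per kb for snoRNA:Me28S-A982a to 11130.3 CPM per kb for snoRNA:Or-aca5, and in Uhg1 and Uhg5 every member stayed between 6.63 and 45.5 CPM per kb. The exons of these hosts stood at 1725 CPM per kb for RpS5a, 104 for Uhg4, 54.0 for Uhg1 and 78.6 for Uhg5.

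**Figure D2:**
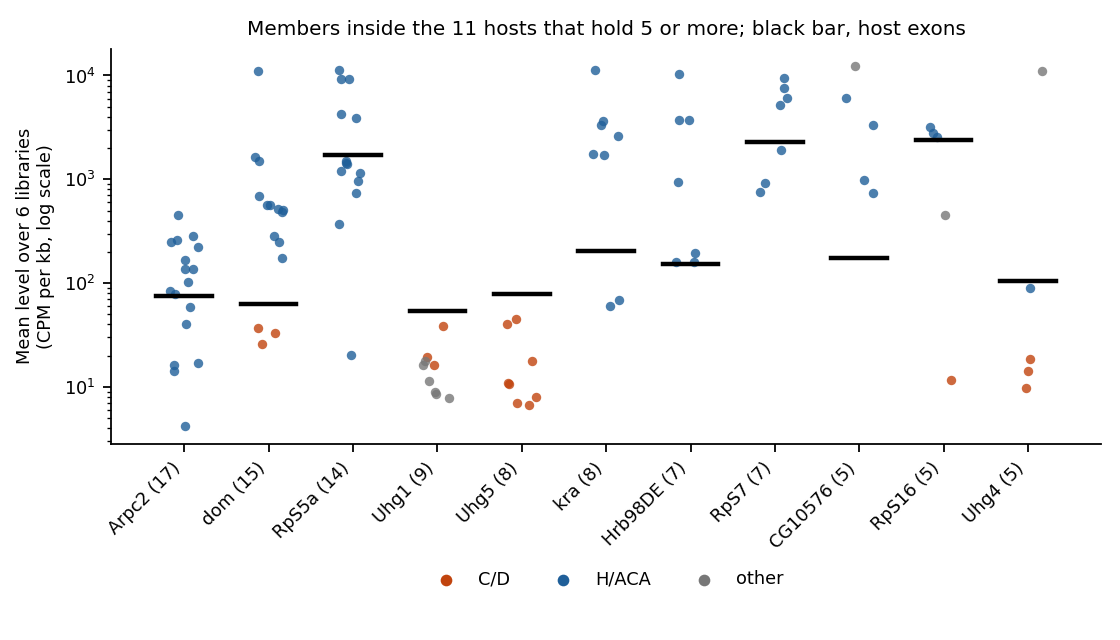
Mean level over the 6 RNA-seq libraries (CPM per kb, log scale) of the members inside the 11 hosts that hold at least 5, with the number of members in brackets. Points are members, coloured by class, and the black bar is the level of the host's exons; the spread over the members of a host ran from 4.92-fold in Uhg1 to 1129.6-fold in Uhg4, with 559.8-fold in RpS5a.

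Copies of the same guide, written with a closing letter in the names, also differed. There were 26 such families with 89 members, of which 19 families with 74 members were H/ACA, and 25 of the 26 lay in a single host. The median range between the highest and the lowest copy was 3.57-fold per length, and it was over 10-fold in 8 families. snoRNA:Psi28S-2442b in the host kra stood at 11173 CPM per kb and snoRNA:Psi28S-2442a in the same host at 60.9 CPM per kb. Copies with similar sequence can share reads, and how the counting treated such reads is not given in the sources used here, so the levels of single copies are uncertain.

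Names in Me took a larger share of the counts of Me plus Psi names in the libraries labelled swm RNAi. The other names, which hold further RNAs of both classes, are not part of this share. They took 1.19% ± 0.0203 of the library in the controls and 1.15% ± 0.256 in the libraries labelled swm RNAi (SD, n = 3). Of the counts of C/D plus H/ACA members, C/D members took 3.65%, 3.90% and 3.44% in the controls and 4.83%, 5.40% and 4.70% in the libraries labelled swm RNAi. The groups did not overlap, with 3.66% ± 0.228 (SD, n = 3) against 4.98% ± 0.369 (SD, n = 3). The counting error was small beside this, since the 95% Wilson interval of the first control was 3.61% to 3.68%. Such intervals cover counting error only. No test was made of the share, because it is a score over members chosen with results of these data known.

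The separation was also seen in 3 views that left out part of the counts. With scaRNA:MeU5-C46 left out, the share was 2.11%, 1.92% and 1.47% in the controls and 2.96%, 2.58% and 2.48% in the libraries labelled swm RNAi. Among snoRNAs alone it was 0.524%, 0.472% and 0.388% against 0.645%, 0.649% and 0.711%. Among scaRNAs alone it was 65.6%, 69.8% and 69.0% against 76.1%, 79.9% and 73.6%. In each of these 3 views all libraries labelled swm RNAi lay above all controls. The snoRNA view includes the called snoRNA:Me18S-A1576, with a log2 fold change of 1.60, and only 3 of the 44 C/D snoRNAs reached a mean of 5 CPM. The snoRNA view was not repeated without that gene, so its separation of the groups may rest on that gene alone. It cannot show a gain across the C/D snoRNAs.

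All members together did not separate the groups. They took 6.23%, 6.66% and 6.59% of the library counts in the controls and 9.04%, 5.89% and 6.58% in the libraries labelled swm RNAi. The first of the latter was the highest of the 6 and the second the lowest. H/ACA members took 5.10% ± 0.202 of the library in the controls and 5.72% ± 1.34 in the libraries labelled swm RNAi (SD, n = 3), and C/D members took 0.194% ± 0.0163 and 0.298% ± 0.0603. Without swm RNAi replicate 1 the difference in the share of all members was -0.25 percentage points, in place of 0.68.

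**Figure D3:**
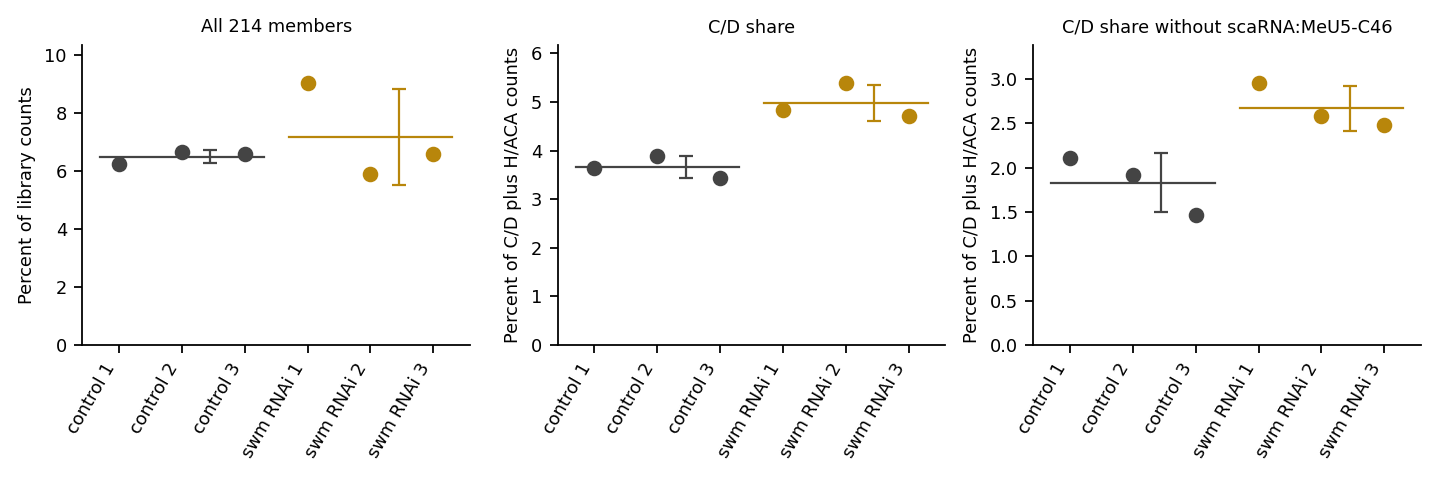
Share of library counts held by the 214 members (left, percent), C/D share of the C/D plus H/ACA counts (middle, percent) and the same share without scaRNA:MeU5-C46 (right) in the 6 RNA-seq libraries, with controls in black, libraries labelled swm RNAi in gold, the group mean as a line and the SD as a bar (n = 3). All 3 gold points lie above all black points in the middle and right panels, and only swm RNAi replicate 1, at 9.04%, stands apart on the left.

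Gene by gene, 2 members rose and none fell in the libraries labelled swm RNAi among the 207 that could be tested (edgeR quasi-likelihood test, adjusted p below 0.05). Over all 8899 genes tested, 2.34% were called higher and 0.832% lower, 3.17% in either direction, so the members' count, 0.966%, was below the background in the first direction. At an unadjusted p below 0.05, 23 members were higher and 0 lower. Of all genes, 7.52% were higher at that limit and 12.4% passed it in either direction. DESeq2 called 5 of 214 members higher and 0 lower, beside 321 higher and 156 lower of 9976 genes. All libraries labelled swm RNAi lay above all controls for 30 of the 214 members, beside 12.3% of all genes, and below all controls for 5, beside 7.94%. The 30 were 7 C/D genes, 21 H/ACA genes and 2 others. The 7 members that were not tested fell short of the minimum count.

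The median log2 fold change over the tested members was 0.23, beside 0.03 over all genes, with 150 of 207 members above 0 and 53.2% of all genes above 0. It was 0.43 over 50 C/D genes, 0.24 over 113 H/ACA genes and 0.06 over 44 others. By target, it was 0.56 for the 30 tested C/D genes named for 28S ribosomal RNA and 0.11 for the 11 named for 18S. For the 62 and 45 H/ACA genes it was 0.24 and 0.27. Most of these C/D genes were rare, with median levels of 16.4 CPM per kb for 28S names and 14.9 for 18S names. The difference between targets was not tested.

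These medians rest in large part on 1 library. swm RNAi replicate 1 was the highest of the 6 libraries for 118 of 214 members and for 80 of 114 H/ACA genes, beside 15.4% of all genes tested. Without it, the median over members was 0.01, that over H/ACA genes 0.02 and that over C/D genes 0.27. When the libraries were scaled to the same sum of member counts, the C/D median was 0.26 and the H/ACA median 0.04, with the median of all genes shifted to -0.12. Control replicate 3 stood apart for the rare genes, holding 0 counts for 15 of 53 C/D genes, where the other libraries held 0 for at most 3. Without it the C/D median was 0.22.

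**Figure D4:**
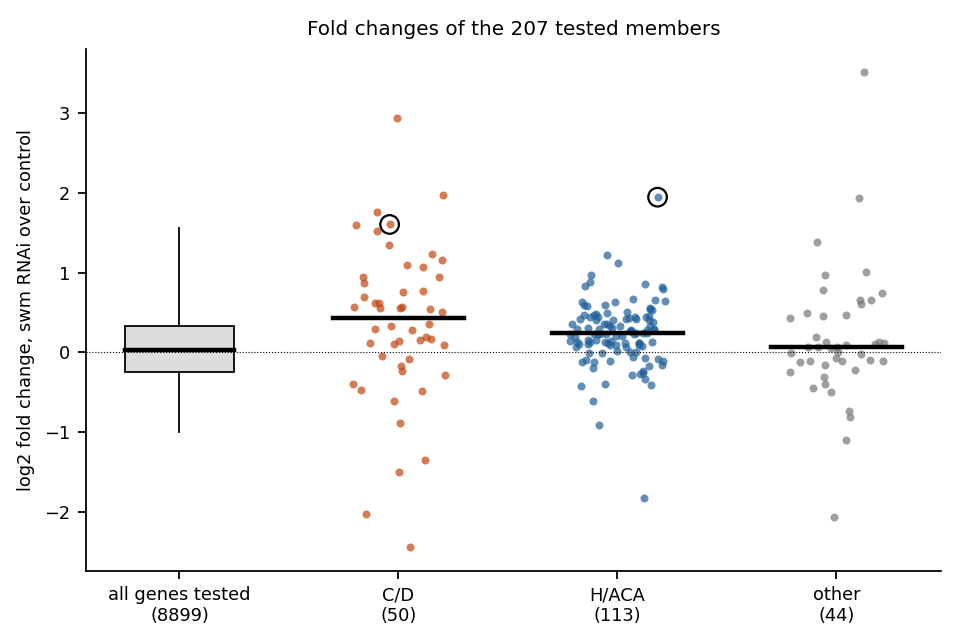
log2 fold change, swm RNAi over control, of the 50 C/D, 113 H/ACA and 44 other members that were tested (points, with the median as a line), beside a box for the 8899 genes tested (median, quartiles, and whiskers at the 5th and 95th percentile). Circles mark the 2 members past the threshold, 1 C/D and 1 H/ACA; the medians are 0.43, 0.24 and 0.06 against 0.03 for all genes.

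The largest called rise was that of snoRNA:Psi18S-301 (3R, 20574906 to 20575043, plus strand), an H/ACA RNA outside any host gene. It stood at 17.1, 11.1 and 10.02 CPM in the controls and 75.2, 39.7 and 32.2 CPM in libraries labelled swm RNAi. The groups were well apart. The log2 fold change was 1.95 (SE 0.34, edgeR adjusted p = 0.0115). Among the alternatives run, the call was lost only without control replicate 3, with an edgeR adjusted p of 0.0776.

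The other called member was snoRNA:Me18S-A1576 (2L, 9894795 to 9894907, minus strand), a C/D RNA inside Uhg2. It stood at 22.4, 47.3 and 57.6 CPM in the controls and 135, 95.2 and 157 CPM in libraries labelled swm RNAi. All of the latter were above all of the former, and the lowest control was the first. The log2 fold change was 1.60 (SE 0.34, edgeR adjusted p = 0.0461), while that of the exons of Uhg2 was -0.00 (SE 0.22, edgeR adjusted p = 0.999). The call lay near the threshold and was lost on leaving out any library except control replicate 1, with edgeR adjusted p from 0.051 to 0.232, and with library sizes alone, at 0.0684.

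The scaRNAs of the C/D class all had positive fold changes where they were abundant, with no call in edgeR. scaRNA:MeU2-48 (3L, 1498872 to 1498996, minus strand), inside the splicing regulator gene hfp, stood at 263, 245 and 235 CPM in the controls and 867, 369 and 419 CPM in libraries labelled swm RNAi. The groups did not overlap, and swm RNAi replicate 1 was over 2 times as high as either of the others. The log2 fold change was 1.16 (SE 0.30, edgeR adjusted p = 0.0796), and that of the exons of hfp was 0.09. Without swm RNAi replicate 1 the log2 fold change was 0.66. The gene passed the threshold in DESeq2, at an adjusted p of 0.00244, and in edgeR without swm RNAi replicate 2, at 0.0341.

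scaRNA:MeU2-G25, inside mask, stood at 165, 189 and 125 CPM in the controls and 418, 246 and 213 CPM in libraries labelled swm RNAi, with a log2 fold change of 0.87 (SE 0.26, edgeR adjusted p = 0.135). Without swm RNAi replicate 1 this was 0.51, and DESeq2 gave an adjusted p of 0.0397. scaRNA:MeU5-C46 stood at 800.3, 1046 and 1056 CPM in the controls against 1535, 1449.6 and 1264 CPM, with a log2 fold change of 0.55 (SE 0.18, edgeR adjusted p = 0.171). For both genes, every library labelled swm RNAi was above every control. The exons of CG1142, the host of scaRNA:MeU5-C46, stood at 27.0, 23.0 and 19.7 CPM in the controls and 37.1, 29.7 and 35.9 CPM in libraries labelled swm RNAi, with no overlap and a log2 fold change of 0.56 (SE 0.21, edgeR adjusted p = 0.274). scaRNA:MeU4-A65 stood at 149, 149 and 65.7 CPM in the controls against 208, 160.2 and 146 CPM, which overlapped, with a log2 fold change of 0.50, or 0.32 without swm RNAi replicate 1.

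Of the 9 C/D genes with a mean of at least 5 CPM, all 9 had a log2 fold change above 0, from 0.33 to 1.60, 5 had groups that did not overlap and 1 was called, beside 53.2%, 12.3% and 2.34% of all genes. Their median was 0.55. Without swm RNAi replicate 1, which was the highest library for 7 of them, 8 were above 0 and the median was 0.48. The minimum of 5 CPM was chosen after seeing the data, and the shares of all genes carry no such minimum. The authors' deposited table of the RNA-seq comparison gave an adjusted p below 0.05 for 5 of the 214 members, beside 4.60% of all genes in it. These were scaRNA:MeU2-48, with a log2 fold change of 1.13 in the authors' deposited table, scaRNA:MeU2-G25 with 0.84, snoRNA:Me18S-A1576 with 1.57, snoRNA:Psi18S-301 with 1.92 and snoRNA:Irbp-a with 1.35.

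Of the 44 C/D genes with means under 5 CPM, 2 had all libraries labelled swm RNAi above all controls, beside 12.3% of all genes. For 4 they lay below all controls, beside 7.94%. The lower ones were scaRNA:MeU1b-A234, with 1.18, 0.539 and 3.88 CPM in the controls and 0.00, 0.523 and 0.482 CPM in libraries labelled swm RNAi, and 3 C/D snoRNAs with a mean of at most 4.55 CPM. scaRNA:MeU1b-A234 is named after its values were seen. At 0 to 3.88 CPM a difference in such a gene was not detectable at this depth, and its log2 fold change was -2.44 (SE 1.56, edgeR adjusted p = 0.633).

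Among the 113 tested H/ACA genes, 89 had a log2 fold change above 0, most of them small, and 1 was called. Beside snoRNA:Psi18S-301, 20 had groups that did not overlap, all with the libraries labelled swm RNAi higher, where 12.3% of all genes lay so. None of the 114 H/ACA genes had every library labelled swm RNAi below every control, beside 7.94% of all genes. swm RNAi replicate 1 was the highest library for 80 of the 114. The range over H/ACA genes was -1.83 to 1.95.

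The largest negative fold changes at a mean of at least 5 CPM came from genes that were high in 1 control. snoRNA:Psi18S-841a, an H/ACA RNA inside dom, stood at 28.5, 16.7 and 124 CPM in the controls and 21.5, 11.8 and 14.2 CPM in libraries labelled swm RNAi. snoRNA:Psi28S-1135d, inside RpS5a, stood at 35.4, 34.3 and 135 CPM in the controls against 56.5, 24.8 and 27.9 CPM, and snoRNA:185, outside any host, at 200.1, 248 and 959 CPM in the controls against 302, 264 and 232 CPM. In all 3, control replicate 3 was over 2 times as high as any other library and the groups overlapped. The log2 fold changes were -1.83, -0.91 and -0.82, with edgeR adjusted p of 0.492, 0.734 and 0.748, and without control replicate 3 they were -0.51, 0.06 and 0.25. snoRNA:gcl-a, inside gcl, stood at 8.59, 8.24 and 7.57 CPM in the controls and 5.26, 6.01 and 3.37 CPM in libraries labelled swm RNAi. Here the groups did not overlap, with a log2 fold change of -0.73 (SE 0.42, edgeR adjusted p = 0.572).

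Among the host genes there was a single call. Of the 71 hosts that were tested, 1 rose and none fell in edgeR, beside 2.34% and 0.832% of all genes. An unadjusted p below 0.05 was found for 6, beside 12.4% of all genes, and the median log2 fold change was -0.00; DESeq2 also called 1 lower, RpL27A. Over the 179 tested members with a tested host, in 69 hosts, the median was 0.23 for members and 0.00 for their hosts, and 129 members had the higher fold change of the pair. Member and host log2 fold changes had a Pearson r of 0.07 and a Spearman rho of -0.05 over these 179 pairs, which share libraries and, in part, hosts.

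The host that rose was Irbp, which encodes the fly Ku70 DNA repair protein. Its exons stood at 14.6, 37.0 and 28.2 CPM in the controls and 124, 108 and 113 CPM in libraries labelled swm RNAi, with a log2 fold change of 2.11 (SE 0.29, edgeR adjusted p = 0.00321). The groups were far apart. Its member snoRNA:Irbp-a stood at 29.96, 22.8 and 12.2 CPM in the controls and 91.5, 35.0 and 42.8 CPM in libraries labelled swm RNAi. These groups did not overlap either, and the log2 fold change was 1.38 (SE 0.44, edgeR adjusted p = 0.202). Without swm RNAi replicate 1 it was 0.83, and DESeq2 gave an adjusted p of 0.019.

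The proteins of the guide particles showed no call. Of 34 tested genes in 5 lists, 0 were called in either direction in edgeR, and 4 had an unadjusted p below 0.05, a share near the 12.4% of all genes. The 4 C/D core proteins had a median log2 fold change of -0.07, and their most abundant members, Nop56 and nop5, stood at 243 ± 52.7 and 240.2 ± 27.5 CPM in the controls and 222 ± 18.7 and 237 ± 10.8 CPM in libraries labelled swm RNAi (SD, n = 3). The 4 H/ACA core proteins had a median of 0.08, with Nop60B at 399 ± 68.7 and 411 ± 8.41 CPM and CG4038, the fly Gar1, at 112 ± 14.6 and 108 ± 4.01 CPM (SD, n = 3).

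Single genes of these lists had the following values. hoip, the protein that binds the kink-turn of C/D RNAs, had a log2 fold change of 0.52 (SE 0.16, edgeR adjusted p = 0.126), and NHP2, its H/ACA relative, 0.44 (SE 0.17, edgeR adjusted p = 0.275). Of the 9 tested assembly and Cajal body genes the median was 0.01, with the nucleolar chaperone Nopp140 at -0.16 (SE 0.16). Of the 11 exosome and trimming genes the median was 0.00, with Rrp40 and Ski6 at 0.91 each (SE 0.34 and 0.35, edgeR adjusted p = 0.249 and 0.276). hoip, NHP2, Rrp40 and Ski6 are the 4 genes with an unadjusted p below 0.05 and are named after their values were seen. Of the 6 tested Uhg genes the median was -0.02.

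The CLIP-seq table could show only a few of the members. In it, the stated gene length equals the whole gene span for 74 of 74 hosts compared, introns included. Of the 262 snoRNA and scaRNA names that overlap another gene on either strand, 0 had a CLIP-seq count, and of the 12 that overlap no other gene, 11 had counts. In the RNA-seq table, where the stated length of all 74 hosts is shorter, all 25 names that overlap an exon of another gene on the same strand held 0 counts, as did 6 of the 242 that overlap no exon. The 10 members with CLIP-seq counts are therefore those that stand alone in the genome. None of them has a name beginning with Me. The 3 U3 genes among them are C/D RNAs but are counted here with the other names. C/D members took 0 of 9978, 0 of 51817 and 0 of 65428 C/D plus H/ACA counts in the input, Swm IP replicate 1 and Swm IP replicate 2, which at 3 counts of the total, the limit taken for a count of 0, would allow shares of up to 0.0301%, 0.00579% and 0.00459%. Since names that overlap another gene held no CLIP-seq count at all, these limits say nothing about the RNA. Members with names in Me and in Psi therefore cannot be compared in CLIP-seq.

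Among the 10, 3 were higher and 2 were lower in Swm IP than in the input (edgeR quasi-likelihood test, adjusted p below 0.05), beside 9.25% and 8.97% of all 8375 genes tested. The comparison has 2 IPs against 1 input, which leaves 1 residual degree of freedom, and the test takes the input to vary as the IPs do. No mock immunoprecipitate was analysed here. Both IPs were above the input for 6 of the 10, beside 40.0% of all genes. All 10 together took 0.337% of the counts in the input and 2.99% and 1.16% in the IPs.

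**Figure D5:**
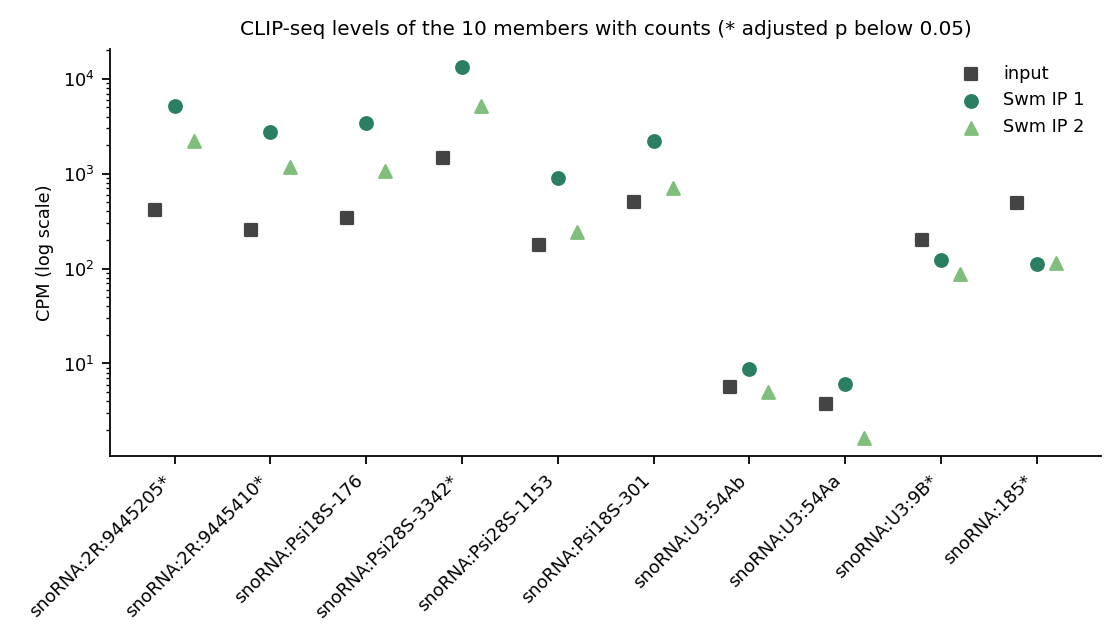
CLIP-seq level (CPM, log scale) in the input and the 2 Swm IPs of the 10 members with counts, ordered by their log2 ratio; a star marks an edgeR adjusted p below 0.05. Both IPs lie above the input for the first 6 members and below it for snoRNA:U3:9B and snoRNA:185.

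The largest ratios came from a group of neighbours on chromosome arm 2R. snoRNA:2R:9445205 (2R, 13557700 to 13557850, minus strand) stood at 415 CPM in the input and at 5188 and 2239.5 CPM in the first and the second IP. The log2 ratio of IP over input was 3.16 (SE 0.45, edgeR adjusted p = 2.12e-05). snoRNA:2R:9445410, at 13557905 to 13558055 on the same strand, stood at 255 CPM in the input and at 2784 and 1179 CPM in the first and the second IP, with a log2 ratio of 2.96 (SE 0.49, edgeR adjusted p = 0.00122). Both IPs were far above the input in both genes. The third gene of the group, snoRNA:Psi28S-1153, at 13557539 to 13557686, stood at 179 CPM in the input and at 903 and 240.4 CPM in the first and the second IP. It had a lower log2 ratio, 1.67 (SE 1.49, edgeR adjusted p = 0.641), and the second IP was little above the input. In RNA-seq the 3 neighbours had log2 fold changes of -0.22, -0.10 and 0.20, with no call.

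All 4 H/ACA genes with CLIP-seq counts were higher in both IPs, and 1 was called. snoRNA:Psi28S-3342 (X, 5524302 to 5524465, minus strand) stood at 1449 CPM in the input and at 13316 and 5161 CPM in the first and the second IP, with a log2 ratio of 2.67 (SE 0.49, edgeR adjusted p = 0.000479). In DESeq2 its adjusted p was 0.0836. snoRNA:Psi18S-176 (2R, 23839911 to 23840064, minus strand) stood at 342 CPM in the input and at 3458 and 1077 CPM in the first and the second IP. Its log2 ratio of 2.73 (SE 1.29, edgeR adjusted p = 0.413) was as large, but the IPs differed more from each other.

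snoRNA:Psi18S-301, the gene that rose in the libraries labelled swm RNAi, stood at 498 CPM in the input and at 2237 and 709 CPM in the first and the second IP. Its log2 ratio was 1.56 (SE 1.22, edgeR adjusted p = 0.59), and the second IP was close to the input. In each of the 6 genes with both IPs above the input, replicate 1 was higher than replicate 2. For these 6 the ratio to the input was 4.49-fold to 12.5-fold in replicate 1 and 1.34-fold to 5.40-fold in replicate 2.

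The 3 U3 genes, whose RNAs act in the cleavage of the ribosomal RNA precursor, had 1 call, a lower one. snoRNA:U3:9B, on chromosome X, stood at 202 CPM in the input and at 122 and 87.8 CPM in the first and the second IP, with a log2 ratio of -0.95 (SE 0.27, edgeR adjusted p = 0.00508). Both IPs were below the input, and the call was lost in DESeq2 at an adjusted p of 0.0933. snoRNA:U3:54Ab stood at 5.69 CPM in the input and at 8.84 and 5.05 CPM in the first and the second IP and snoRNA:U3:54Aa at 3.71 CPM in the input and at 6.15 and 1.65 CPM in the first and the second IP. These rest on 15 to 46 counts per library, and their log2 ratios of 0.25 and -0.01 (SE 0.93 and 1.20) lay within 1 SE of 0. The U3 genes are close copies, so reads could be split between them. In RNA-seq their log2 fold changes were 0.08, 0.12 and 0.05.

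The lowest ratio was that of snoRNA:185 (2R, 19727098 to 19727152, minus strand), the shortest of the 10 with 55 bases. It stood at 497 CPM in the input and at 111 and 115 CPM in the first and the second IP, and the IPs were close to each other and far below the input, with a log2 ratio of -2.13 (SE 0.24, edgeR adjusted p = 4.32e-13). The single name in Me with CLIP-seq counts, snoRNA:Me18S-A1806, is no member, with 3 counts over the RNA-seq libraries. It stood at 102 CPM in the input and at 32.3 and 21.8 CPM in the first and the second IP, again below the input in both IPs, with a log2 ratio of -1.94 (SE 0.35, edgeR adjusted p = 5.32e-06).

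Other short genes were mostly lower in Swm IP. The 72 other tested genes with a span of up to 250 bases had a median log2 ratio of -3.08, and 0 were called higher and 36 lower. Among these, the 22 that are nuclear and no transfer RNA had a median of -2.03, with 9 called lower, and the 8 tested small nuclear RNAs had -2.29, with 5 called lower. All 8375 genes had a median of 0.00 and the 10 members 1.61. The 3 C/D core protein genes tested had a median of -1.22 with Nop56 lower at -1.23 (SE 0.36, edgeR adjusted p = 0.00825), and the 3 H/ACA core protein genes had -1.55 with no call. Of the 9 assembly and Cajal body genes 1 was called higher, beside 9.25% of all genes. It was CG8677, with a log2 ratio of 1.52 (SE 0.28, edgeR adjusted p = 1.36e-05). Whether CG8677 belongs in this list is not certain, so its call cannot be read as that of an assembly gene. No gene of the trimming and Uhg lists was called in Swm IP (0 of 10 and 0 of 6 in edgeR).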

How the data were processed

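For 6 RNA-seq and 3 CLIP-seq libraries the authors deposited tables of raw counts, whole numbers per gene without normalization. Ribosomal RNA was depleted with the Ovation SoLo kit, per the labels' protocols. Per the submitters' processing notes the tools were cutadapt 2.9 and STAR 2.7.3a, with SAMtools 1.10, Subread 2.0.0 (featureCounts) and DESeq2. Build, annotation and strand setting are not given in the sources used here. From the authors' deposited comparison tables, log2 fold changes and p-values adjusted by the authors are printed only where named; a further 9 columns of per-sample values there stayed out. A row without a gene name, with at most 5 counts in an RNA-seq and 1 in a CLIP-seq library, was dropped.

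Samples were grouped by their labels, and the class was read from the gene names. Positions and hosts come from the BDGP6 annotation of Ensembl release 115, matched by symbol or an older symbol, which placed 274 of 304 names. Of the 11 names for which the authors' deposited table gives coordinates, 8 had the same ones, and the 3 U3 genes differed at an end.

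The main test was the robust quasi-likelihood test of edgeR 4.0.16 in R 4.3.3, run on each table by itself after filterByExpr (minimum count 10) and TMM scaling, with Benjamini-Hochberg adjustment over all genes at 0.05. CPM per kb divides CPM by the deposited gene length. A standard error was taken as the log2 fold change over the square root of F. The fits were tested on simulated data. Alternatives were DESeq2 1.42.0, other size factors, other filters, the robust option off, a replicate block, each RNA-seq library left out, other minimum counts for members and other class definitions. Same-numbered libraries did not deviate together, so the main test had no block.

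The members and the lists were chosen with earlier results of these data known. Named members are those called in RNA-seq, the most abundant 5 C/D, 5 H/ACA, 3 scaRNA and 3 other, the 4 largest positive and 4 largest negative log2 fold changes at a mean of at least 5 CPM, all with CLIP-seq counts, those beside the minimum, and of each list the called or else the 2 most abundant genes. Others are said to be named after their values were seen, or serve as examples of a range within a host.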

Additional observations from a re-analysis of the deposited data

How the results depend on the processing

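Of the 449 values of named members under the alternatives, 383 kept their direction and their side of the threshold, 10 lost a call, 16 gained one and 40 changed sign, all 40 from values without a call; the cause of a change of sign was not tested. The 2 members called higher in RNA-seq became 5 with DESeq2, 1 with library sizes alone, 15 without a filter, 3 when libraries were scaled to the summed member counts, 4 with the replicate block and 0 to 2 on leaving out a library; both main calls were among the 5, the 15 and the 4. Scaling to the summed member counts also called 2 lower, beside 122 of 8899 genes. Of all genes, 321 of 9976 were called higher with DESeq2, 188 of 8899 with library sizes alone and 351 of 12956 without a filter. With DESeq2 and without a filter 214 members were tested. The genes called higher were 192 with the scaling to member counts, 211 with the replicate block and 114 to 276 on leaving out a library. Same-numbered libraries had correlations of -0.099, -0.090 and 0.0066 in their deviations, so the numbers share only a name, and the block added scaRNA:MeU2-48 and snoRNA:Irbp-a. For hosts and lists, the count called lower was 1 with DESeq2 and without a filter, in place of 0, and 0 to 1 on leaving out a library.

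In Swm IP, 6 members were higher with the robust option off, in place of 3, beside 617 of 8375 genes. With DESeq2 and with library sizes alone 1 member was lower, in place of 2. Over all genes, 388 of 6438 were lower with DESeq2 and 417 of 8375 with library sizes alone. Leaving out a Swm IP replicate leaves no residual degree of freedom, so no such test was made. snoRNA:U3:54Aa turned to 0.031 with RLE size factors and 0.27 with library sizes alone, which shifted the median of all genes to 0.29.

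The C/D share was higher by 1.31 percentage points, by 0.21 among snoRNA names and by 0.84 without scaRNA:MeU5-C46, and by 1.105 to 1.45 on leaving out a library. For the share of all members the range on leaving out a library was -0.25 to 1.32. Both class medians kept their sign under every alternative run, at 0.22 to 0.65 for C/D and 0.02 to 0.37 for H/ACA on leaving out a library. The class names with more prefixes, the minimum of 5 CPM and the share without scaRNA:MeU5-C46 were chosen after seeing the data.

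The log2 fold changes that changed sign lay near 0 or rested on 1 library. Scaled to summed member counts they were -0.059 for scaRNA:PsiU2-55, -0.15 for snoRNA:Or-aca5, -0.024 for snoRNA:Psi28S-1153, -0.11 for snoRNA:Psi28S-3378, -0.21 for snoRNA:SC35-a, -0.15 for snoRNA:U3:54Aa, -0.063 for snoRNA:U3:54Ab and -0.11 for snoRNA:U3:9B, and with library sizes alone -0.00095 for snoRNA:Or-aca5, -0.059 for snoRNA:SC35-a and -0.022 for snoRNA:U3:54Aa. snoRNA:SC35-a was -0.027 with DESeq2, -0.026 with RLE size factors, -0.0043 with a minimum count of 50, -0.00086 without a filter and -0.0054 with the replicate block. On leaving out a library the ranges were -0.032 to 0.32 for scaRNA:PsiU2-55, -1.18 to 0.25 for snoRNA:185, -0.54 to 0.037 for snoRNA:2R:9445205, -0.35 to 0.047 for snoRNA:2R:9445410, -0.17 to 0.20 for snoRNA:Or-aca5, -0.93 to 0.067 for snoRNA:Psi18S-176, -1.38 to 0.062 for snoRNA:Psi28S-1135d, -0.043 to 0.43 for snoRNA:Psi28S-1153, -0.58 to 0.095 for snoRNA:Psi28S-291, -0.11 to 0.28 for snoRNA:Psi28S-3378, -0.20 to 0.16 for snoRNA:SC35-a, -0.15 to 0.16 for snoRNA:U3:54Aa, -0.047 to 0.30 for snoRNA:U3:54Ab and -0.28 to 0.60 for snoRNA:U3:9B. Depth limits the rare C/D genes, of which 44 had a mean under 5 CPM.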
